A study of Mus musculus with 12 samples.

Results

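The comparison described here is that of Flk2+ multipotent progenitors (MPPs) of the bone marrow (BM) at 3 months of age (3MO) against 1 month of age (1MO). Its members were the 3 libraries titled 3MO MPP and the 3 titled 1MO MPP, 6 of the 12 libraries of the series, chosen by title alone, and all genes of the table were considered. Of 32285 genes in the table, 13367 passed the filter on low counts and were tested. The cells were sorted from the BM of wild-type C57BL6/J mice. No treatment or altered allele separates the groups, so that age is the only labelled difference. The other 6 libraries are Ly6d- common lymphoid progenitors (CLPs), progenitors one step closer to lymphocytes, at the same ages. The study's methods describe sorting per mouse, and the number of mice behind each library is not given in the sources used here.

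Flk2+ MPPs stand between hematopoietic stem cells and the first committed lymphoid and myeloid progenitors. Flk2, the receptor encoded by Flt3, appears as self-renewal is lost, and cells of this stage give rise to CLPs and to the progenitors that seed the thymus. In the weeks after birth, hematopoietic progenitors leave a fetal type of gene expression, in which the RNA-binding protein Lin28b blocks the maturation of let-7 microRNAs, and take on an adult one. The let-7 family is known to restrain messages such as Hmga2, a chromatin architectural protein, and Igf2bp3, an RNA-binding protein of fetal tissues.

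Igf2bp3 and Hmga2 were the genes called as lower at 3MO, so matches to the let-7 seed in their messages are given first, with microRNA sequences from RefSeq on GRCm38.p6. The let-7 and miR-98 entries had 11 mature names, of which 10 shared the seed at bases 2 to 8. The seed is in capitals in these 3 members.
let-7a-5p: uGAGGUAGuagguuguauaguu
let-7b-5p: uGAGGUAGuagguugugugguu
let-7g-5p: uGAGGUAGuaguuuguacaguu

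A match to this seed followed by A, read as CTACCTCA on the strand of the message, was searched in the longest annotated 3′ untranslated region of each coding gene of GENCODE M21 on GRCm38. At least 1 match was held by 644 of 21699 genes, or 2.97%. Igf2bp3, Hmga2 and Lin28b held 1 match each. The matches are in capitals within 30 bases of message. They lie on the minus strand at chr6:49086776-49086805 for Igf2bp3, at chr10:120364213-120364242 for Hmga2 and at chr10:45381011-45381040 for Lin28b.
Igf2bp3: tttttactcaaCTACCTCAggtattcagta
Hmga2: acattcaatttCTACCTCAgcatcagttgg
Lin28b: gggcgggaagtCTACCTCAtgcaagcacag
Mycn and Pgr, described below, held no match to these letters in this window. Shorter matches were not searched. Of other genes in the fetal-type list below, Arid3a and Igf2bp2 held 1 match each, Lin28a 2 and Igf2bp1 3. Arid3a, Igf2bp2 and Lin28a had log2 fold changes of −0.22 (SE 0.20), −0.54 (SE 1.34) and 0.54 (SE 1.63), none called. Igf2bp1 had no count in the Flk2+ MPP libraries. Among tested genes, 53.4% of the 461 with at least 1 match and 51.9% of the 11891 without had lower values at 3MO, and the median log2 fold changes were −0.02 and −0.01. These shares are close to each other, so the printed matches are a description of Igf2bp3, Hmga2 and Lin28b. MicroRNAs themselves were not measured.

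The totals of estimated counts ran from 8889083 to 15768833 in the 6 libraries and did not differ between ages (exact permutation test, two-sided, p = 1, where 0.1 is the smallest p that 3 against 3 allow). Levels are given as CPM, the counts of a gene relative to the library total after scaling between libraries. The identity of the sort was visible in the RNA. Flt3 lay between 1103 and 1363 CPM, Kit, the stem cell factor receptor, between 672 and 797, and Cd34 between 634 and 905. Cd8a was at 0 in every library, Cd3e and Ly6g did not exceed 0.22 CPM, and Ly6d did not exceed 2.25 CPM. Xist was at 1480 to 3250 CPM and the Y-linked gene Ddx3y at 69.7 to 115 CPM, both in all 6 libraries, so that each library held RNA of both sexes, at both ages.

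The library 3MO MPP 1 stood apart from the other 5. The first principal component, with 51.3% of the variance, placed it at 123 and the others between −34.1 and −18.1. It had 12379 genes with a count, the fewest, against 14034 to 15512 in the others. Cytosolic ribosomal protein genes took 2% of its counts against 2.75% to 5.43%, and its hemoglobin share was within the range of the others. In 3MO MPP 1, 245 genes were over 2-fold above and 206 over 2-fold below all 5 other libraries, while no other library had more than 24 and 7. There were 22 genes at 0 in it and at 5 CPM or more in each of the others, among them Lactb and Cacna1a, and no such gene in any other library. Fam177a was another, but 1700047I17Rik2, nearby on chromosome 12, was at 21.4 CPM in 3MO MPP 1. In the 1MO libraries Fam177a was at 26.8, 30.95 and 27.6 CPM and 1700047I17Rik2 at 0. How reads were divided between these entries was not tested. Zc3h11a, Nnt and Zbed6 were also among the 22, but the table holds 2 overlapping entries for both Zc3h11a and Nnt, of which the other had counts in 3MO MPP 1, and Zbed6 lies within Zc3h11a, so their reads may not be separable. The edgeR calls and the medians of the gene lists below are therefore given with and without this library, while sums of markers are given for each age over all its libraries. The DESeq2 calls and the comparison with Ly6d- CLPs rest on all libraries.

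**Figure D1:**
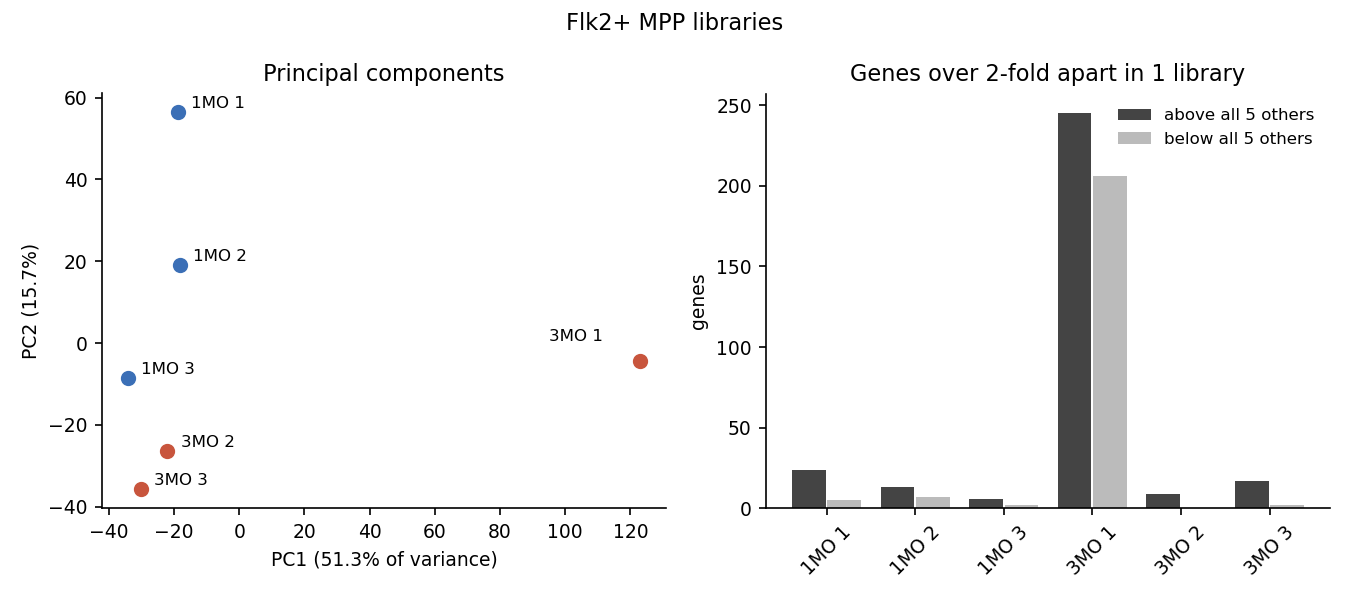
Left, scores of the 6 Flk2+ MPP libraries on the first 2 principal components of log2 CPM (axes without units, share of variance in percent). Right, number of genes in each library over 2-fold above (dark bars) or below (light bars) all 5 others. 3MO MPP 1 sits at 123 on the first component and has 245 and 206 such genes.

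The question of the comparison is which genes change in BM progenitors between 1MO and 3MO, upstream of the cells that seed the thymus. Of 13367 genes, 3 passed edgeR's quasi-likelihood test at an adjusted p under 0.05, which is 0.0224%. Igf2bp3 and Hmga2 fell with age, and Pgr, the progesterone receptor, rose. Before adjustment, 465 genes (3.48% of those tested) had p under 0.05, with 276 higher and 189 lower at 3MO. If no gene differed, a share of about 0.05 would be under this threshold on average. The median log2 fold change of all tested genes was −0.01. Without 3MO MPP 1, 13828 genes were tested and 4 were called, or 0.0289%. These were the same 3 genes and Blk.

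Igf2bp3 (chromosome 6, 49085223 to 49214957, GRCm38) was at 29.7, 18.4 and 30.7 CPM in the 1MO libraries and at 0, 0.288 and 0 CPM in the 3MO libraries. The ages did not overlap, and 2 of 3 libraries at 3MO had no count. Means were 26.3 ± 6.81 and 0.0959 ± 0.166 CPM (SD, n = 3 each). The log2 fold change was −7.84 (SE 0.73), with an adjusted p of 0.000188 in edgeR, and was −7.44 without 3MO MPP 1 (adjusted p = 0.000667). The fitted size rests on few counts at 3MO and was −11.5 without 3MO MPP 2, the 1 older library with a count, where it depends on the prior count, and limma's voom with sample weights did not call it (adjusted p = 0.118).

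Hmga2 (chromosome 10, 120361275 to 120476469) was at 172, 124 and 121 CPM at 1MO and 45.3, 38.1 and 33.2 CPM at 3MO. Every 3MO library was below every 1MO library, but the message remained at 38.9 ± 6.04 CPM against 139 ± 28.3 CPM (SD, n = 3 each). The log2 fold change was −1.84 (SE 0.24, edgeR adjusted p = 0.00448), or −1.96 without 3MO MPP 1 (adjusted p = 0.00721). Hmga2 was called under each of the 10 other analyses and in each of the 6 fits with an MPP library left out.

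Pgr (chromosome 9, 8899833 to 8968611) was at 0.161, 3.4 and 2.05 CPM at 1MO and 43.9, 92.6 and 78.5 CPM at 3MO. The gene was near absent in each younger library and well measured in each older one. Means were 1.87 ± 1.63 and 71.6 ± 25.1 CPM (SD, n = 3 each), and the log2 fold change was 5.30 (SE 0.61, edgeR adjusted p = 0.00188), or 5.56 without 3MO MPP 1 (adjusted p = 0.000667). Pgr encodes a nuclear receptor that acts as a hormone-bound transcription factor.

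Blk, a Src-family kinase of B-lineage cells, passed without 3MO MPP 1 (log2 fold change 5.98, edgeR adjusted p = 0.00194) and not with it (5.43, adjusted p = 0.363). Its levels were 0, 0 and 0.121 CPM at 1MO and 0, 2.88 and 4.68 CPM at 3MO. The library at 0 among the 3MO samples was 3MO MPP 1. The 1MO group held 2 counts and the 3MO group 106, a ratio of 54 with an exact 95% counting interval of 14.6 to 451.

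Mycn, the MYC family member expressed in stem and progenitor cells, had the smallest p outside the called genes. It was at 75.9, 85.3 and 111 CPM at 1MO and 38.5, 42.9 and 33.5 CPM at 3MO, without overlap. Its log2 fold change was −1.24 (SE 0.21) with an adjusted p of 0.0777 in edgeR, just outside the threshold, and −1.25 without 3MO MPP 1 (adjusted p = 0.187). DESeq2 (2.64e-05) and voom (0.0439) placed it inside.

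The fetal-type list, which holds regulators of fetal and neonatal progenitors, had 18 genes, of which 13 were tested. Of these, 2 were called by edgeR, both lower (Igf2bp3 and Hmga2), against 0.0224% of all tested genes. Among the 13 tested, 9 were lower and 4 higher, with a median log2 fold change of −0.22, or −0.32 without 3MO MPP 1. The list was written with earlier results of these data known, so these shares are a description. Lin28b was at 1.12, 0.439 and 1.81 CPM at 1MO and had no count at 3MO, at least 15.7-fold lower against a floor of 3 counts over the group. Its unadjusted p was 0.00769 and its adjusted p 1. Hmga1, a relative of Hmga2, was at 148, 124 and 210 CPM against 122, 123 and 117 CPM (log2 fold change −0.41, SE 0.22). Igf2r, the receptor that clears Igf2, was higher at 3MO (86.0, 105 and 92.5 against 144, 157 and 117 CPM), with an unadjusted p of 0.0152. Igf2bp1, H19 and Sox17 had no count in any of the 6 libraries, so the list as a whole was only partly expressed in these cells.

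**Figure D2:**
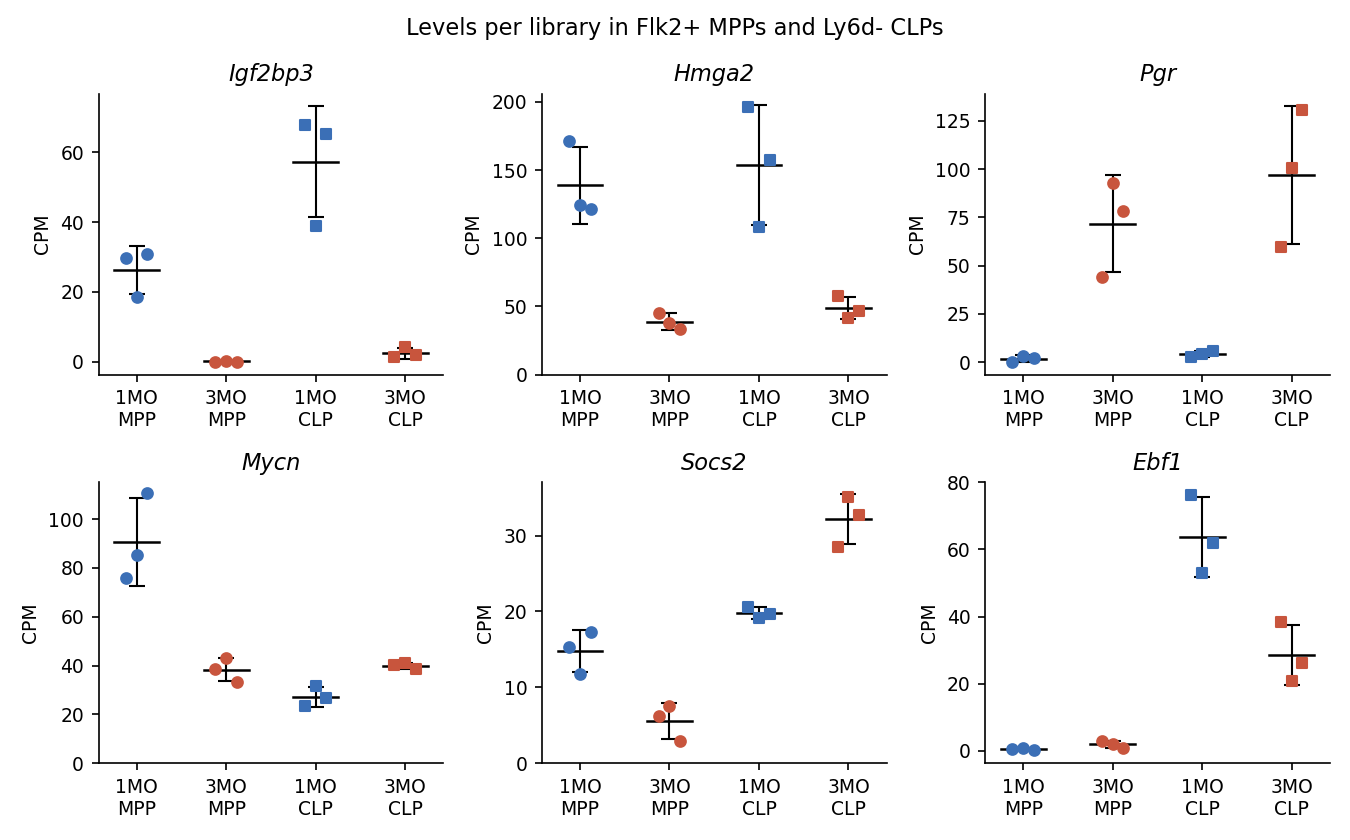
Levels in CPM (linear axes) of 6 genes in each library of Flk2+ MPPs (circles) and Ly6d- CLPs (squares) at 1MO (blue) and 3MO (red). Long bars are means and error bars are SD of 3 libraries. Igf2bp3, Hmga2 and Pgr separate the ages in both cell types, Mycn and Socs2 are lower at 3MO in Flk2+ MPPs and higher in Ly6d- CLPs, and Ebf1 has the opposite pattern on very different levels.

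Among steroid hormone receptors and their known targets, Pgr was the 1 gene of 10 tested that was called, against 0.0224% of all tested genes. All 10 were higher at 3MO (median log2 fold change 0.45), against 48.1% of all tested genes, and without 3MO MPP 1 the same held for 9 of 11 (median 0.53). As with the fetal-type list, these genes were listed with earlier results of these data known, so the shares are a description. Esr1, the estrogen receptor that induces Pgr in other tissues, was at 120, 124 and 88.5 CPM at 1MO and 184, 106 and 116 CPM at 3MO, so the ages overlapped. Its log2 fold change of 0.29 (SE 0.27) became 0.01 without 3MO MPP 1. Greb1, another estrogen-induced gene, did not exceed 0.36 CPM.

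Ngp and other genes of neutrophil granules were higher at 3MO as a list. Among the lists with at least 8 tested members, theirs was the median farthest from 0 with all libraries. Of 12 neutrophil markers 11 were tested, none was called by edgeR, and all 11 were higher at 3MO. Of these, 8 had an unadjusted p under 0.05, against 276 of 13367 genes in this direction. Their median log2 fold change was 1.75, or 2.15 without 3MO MPP 1. Of the 11, 4 did not overlap between ages, where 3.96% of all tested genes were higher without overlap.

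Ngp, a cathelicidin-family granule protein, was at 10.2, 11.7 and 5.48 CPM at 1MO and 22.6, 41.7 and 56.8 CPM at 3MO (log2 fold change 2.15, SE 0.48, edgeR adjusted p = 0.384). DESeq2 (adjusted p = 0.00859) and voom (adjusted p = 0.0448) called Ngp. S100a8, one chain of calprotectin, was at 6.59, 4.17 and 4.16 CPM against 7.51, 19.9 and 30.3 CPM. Chil3, a chitinase-like protein of myeloid cells, was at 5.62, 7.13 and 5.18 CPM against 2.85, 27.4 and 31.9 CPM. In all 3 genes the higher 3MO values were those of 3MO MPP 2 and 3, and for Chil3 3MO MPP 1 was below the 1MO libraries.

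The levels were low. Summed over the 12 markers they were 30.3 to 57.0 CPM at 1MO and 71.6 to 214 CPM at 3MO, while Ly6g, the surface marker of mature neutrophils, was at 0 in 5 libraries and at 0.213 CPM in 3MO MPP 3. In bulk RNA, more cells of a type and more RNA per cell cannot be told apart.

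Genes of myeloid priming, which early progenitors express before commitment, gave a smaller shift. Of 21 tested, 14 were higher (17 without 3MO MPP 1), none was called, and the median was 0.27 (0.37 without). Lyz2, the macrophage and neutrophil lysozyme, was at 76.4, 92.5 and 102 CPM against 87.0, 140 and 174 CPM. Elane, neutrophil elastase, was at 11.3, 15.4 and 20.3 CPM against 12.6, 39.1 and 24.2 CPM. For both, 3MO MPP 1 lay within the range of 1MO and the other 3MO libraries above it. Klf4, a monocyte transcription factor, was at 4.26, 1.87 and 3.92 CPM against 9.94, 10.1 and 10.4 CPM, with no overlap and an unadjusted p of 0.0103. Of 13 macrophage and monocyte markers 8 were lower, none called, with a median of −0.67 (9 lower and −0.35 without 3MO MPP 1). Within this mixed list the monocyte genes Ccr2, F13a1 and Ly6c2 were higher at unadjusted p of 0.0172, 0.0223 and 0.0256, while the resident macrophage genes C1qa, Cd5l and Adgre1 had negative fold changes at CPM of 5.54 or less.

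Genes of the major histocompatibility complex (MHC) were mostly higher at 3MO, in 18 of 23 (20 of 23 without 3MO MPP 1). Their median was 0.24 on the log2 scale (0.29 without). None was called by edgeR, 6 had an unadjusted p under 0.05, all higher, and 6 of 23 were higher without overlap, against 3.96% of all tested genes. The nonclassical class I genes H2-Q6 and H2-Q7, of the Qa-2 group, led the list. H2-Q6 was at 72.6, 84.0 and 68.0 CPM at 1MO and 183, 161 and 159 CPM at 3MO (log2 fold change 1.16, SE 0.23, edgeR adjusted p = 0.316). H2-Q7 was at 135, 173 and 135 CPM against 321, 238 and 273 CPM. DESeq2 called both H2-Q6 and H2-Q7 (adjusted p = 0.00341 and 0.0116). These 2 genes are close copies on chromosome 17, and how their reads were divided is uncertain.

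Class II genes, which present peptides to CD4 T cells, were lower in level and showed the same direction. Cd74, the invariant chain, was at 8.12, 5.05 and 11.3 CPM against 11.8, 17.3 and 28.2 CPM. H2-Ab1 was at 7.88, 10.4 and 9.28 CPM against 14.6, 17.3 and 21.7 CPM. H2-DMb1 was at 35.6 CPM in 3MO MPP 1 and between 6.91 and 15.4 CPM elsewhere, so its difference rested on that library. The classical class I genes H2-K1 and H2-D1 had log2 fold changes of 0.17 (SE 0.15) and 0.15 (SE 0.17).

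The GTPases of the immunity-associated protein family (GIMAP) support the survival of lymphocytes and are encoded together on chromosome 6. All 8 were lower at 3MO, with and without 3MO MPP 1, and the median log2 fold change was −0.64 (−0.65 without). None was called, 4 had an unadjusted p under 0.05, and 4 did not overlap, where 4.61% of all tested genes were lower without overlap. Gimap8 was at 81.7, 82.4 and 107 CPM at 1MO and 53.8, 47.8 and 47.8 CPM at 3MO (log2 fold change −0.86, SE 0.26). Gimap6, the most abundant, was at 256, 203 and 316 CPM against 193, 158 and 203 CPM. Gimap9 was the smallest, at −0.06 (SE 0.30).

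**Figure D3:**
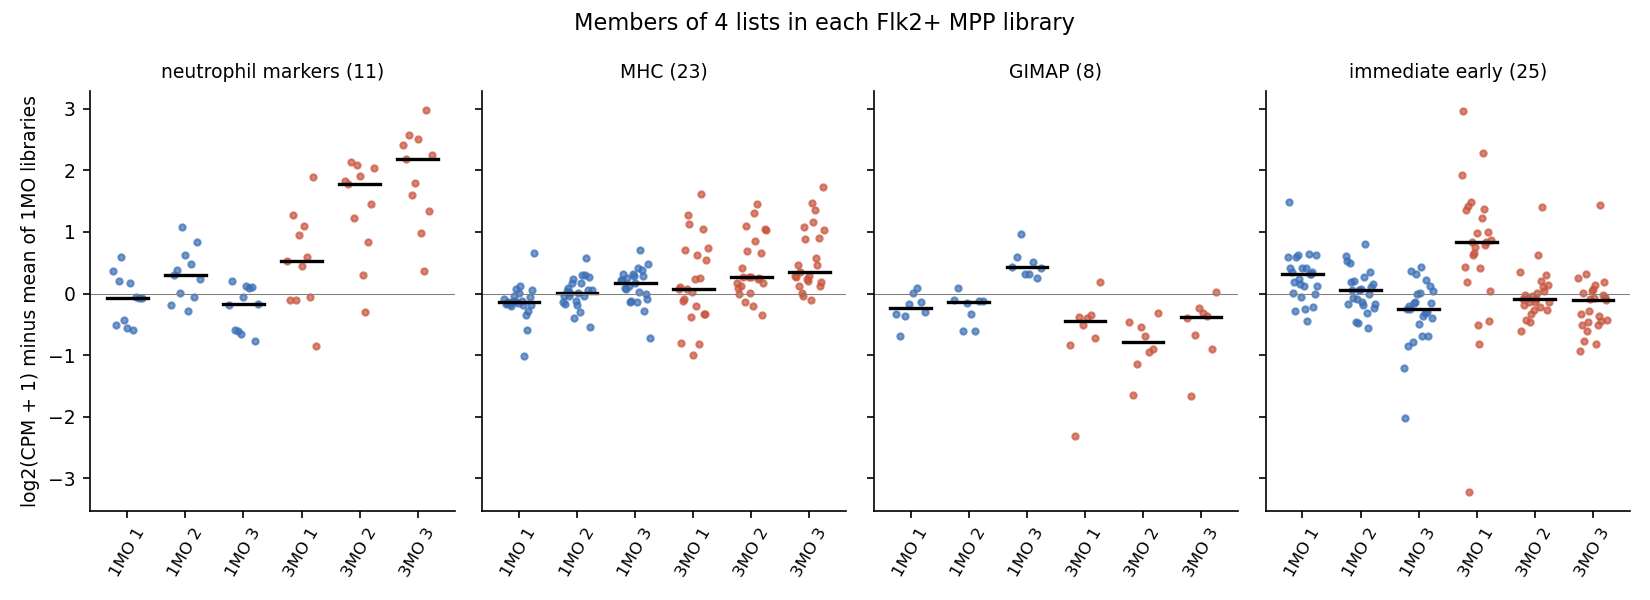
Each point is a gene of a list in a Flk2+ MPP library, as log2(CPM + 1) minus its mean over the 1MO libraries (blue 1MO, red 3MO), and each bar is the median of the library. Neutrophil markers are highest in 3MO MPP 2 and 3, the medians of GIMAP genes are below 0 in all 3MO libraries, and immediate early genes are high in 3MO MPP 1 and not in the other 3MO libraries.

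Interferon-stimulated genes, the antiviral program that is active at low level in resting cells, were lower at 3MO in 38 of 48 tested (37 of 48 without 3MO MPP 1). Their median was −0.33 on the log2 scale (−0.20 without). None was called by edgeR with all libraries. Dhx58, an RNA sensor, was at 34.6, 40.9 and 46.4 CPM against 27.1, 25.6 and 25.2 CPM (log2 fold change −0.65, SE 0.25). The 2 members at the smallest p had the opposite sign. Gbp4 was at 1.53, 1.21 and 2.41 CPM against 14.4, 2.88 and 12.8 CPM, and Gbp6 was at 21.2, 27.1 and 24.0 CPM against 25.7, 44.3 and 79.2 CPM. DESeq2 called Gbp4 (adjusted p = 0.00409) and not Gbp6. These 2 genes have close relatives nearby, and their reads may be shared.

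Genes of G2 and mitosis were lower in 47 of 58 (49 without 3MO MPP 1), by a small amount (median log2 fold change −0.16, or −0.15 without). None was called, 2 had an unadjusted p under 0.05, and 6 of 58 were lower without overlap, against 4.61% of all tested genes. Dlgap5, a spindle protein, was at 92.2, 82.8 and 71.3 CPM against 45, 53.3 and 51.5 CPM (log2 fold change −0.72, SE 0.20). Cenpf, a kinetochore protein, was at 387, 371 and 291 CPM against 256, 228 and 257 CPM. Mki67 overlapped between ages, from 1478 to 2080 and from 1298 to 1964 CPM. Genes of S phase were split, with 25 of 43 lower and a median of −0.06, which became 0.03 without 3MO MPP 1. Cyclin D2 (Ccnd2), which drives entry into the cycle, was at 698, 651 and 652 CPM against 534, 561 and 446 CPM, with an unadjusted p of 0.0179.

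The direction or size of some lists changed without 3MO MPP 1. Immediate early genes, which respond within minutes to stimuli and to cell handling, were higher in 20 of 25 with it and lower in 19 of 26 without it, and their median went from 0.22 to −0.11. Fos was at 226 CPM in 3MO MPP 1 and at 24.9 to 90.4 CPM in the others, and Jund at 139 CPM against 29.6 to 58.5 CPM. The heat shock genes Hspa1a and Hspa1b, which are near-identical copies, were at 134 and 148 CPM in this library and at 6.58 CPM or less in the other 5. Among the Ly6d- CLPs they were at 182 and 284 CPM in 3MO CLP 1 and at 12.45 CPM or less in the other 5, so the libraries numbered 1 at 3MO were high in both cell types. The heat shock list as a whole was higher in 10 of 13 with and without 3MO MPP 1, with a median of 0.32 and 0.055. Vegfa was at 89.9 CPM in 3MO MPP 1 and at 22.4 to 31.0 CPM in the others. Cytosolic ribosomal protein genes were lower in 80 of 83 with it (median −0.21) and higher in 60 of 83 without it (median 0.07). None of these lists had a called gene.

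**Figure D4:**
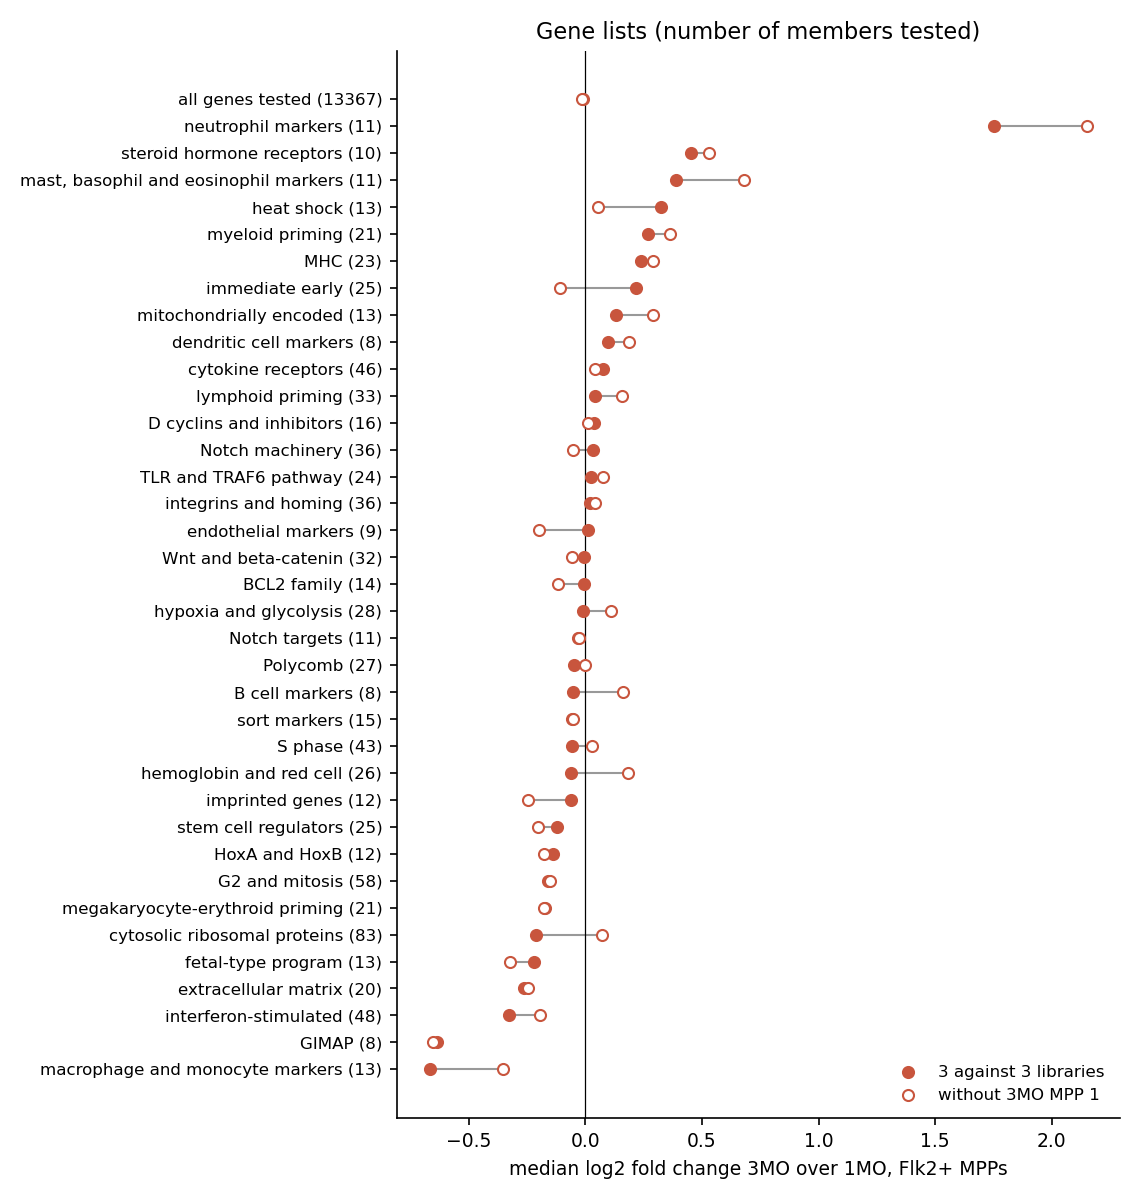
Median log2 fold change of 3MO over 1MO in Flk2+ MPPs for each list with at least 8 tested members (number tested in brackets), with all libraries (filled) and without 3MO MPP 1 (open). Neutrophil markers lie at 1.75 and 2.15 and GIMAP genes at −0.64 and −0.65, while immediate early and ribosomal protein genes change sign.

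Genes of lymphoid priming, the early expression of lymphocyte genes in MPPs, showed no common direction, with 18 of 33 higher, none called and a median of 0.04 (22 higher and 0.16 without 3MO MPP 1). Dntt, the polymerase that adds bases at antigen receptor junctions, was at 460, 406 and 389 CPM against 376, 667 and 598 CPM, where 3MO MPP 1 was the low library. Il7r, the receptor needed for lymphoid growth, was at 7.39, 18.6 and 5.24 CPM against 7.72, 10.7 and 12.8 CPM. Rag1, the antigen receptor recombinase, was at 13.4, 10.8 and 12.6 CPM against 4.97, 9.50 and 8.36 CPM, without overlap (unadjusted p = 0.0224). Blnk, a B-cell adaptor, was at 3.38, 5.16 and 3.62 CPM against 6.24, 7.27 and 6.45 CPM (unadjusted p = 0.00533). The T-cell gene Trbc2 was at 0.804, 0.439 and 5.48 CPM against 0, 0 and 0.425 CPM, and Pax5 had no count at 3MO and up to 1.87 CPM at 1MO. The 12 B cell markers summed to 235 to 249 CPM at 1MO and 222 to 329 CPM at 3MO, and the 13 T and NK cell markers to 33.6 to 46.5 CPM and 30.1 to 35.8 CPM. Of the B cell markers 4 of 8 tested were lower, with a median of −0.05 (3 of 8 and 0.16 without 3MO MPP 1). Of the T and NK cell markers all 5 tested were lower, none called, with a median of −1.63 (4 of 5 and −1.08 without).

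The Notch pathway, in which ligand binding releases the receptor's intracellular part to act in the nucleus and which directs progenitors to the T-cell fate, was of interest to the study. Of 36 genes of its machinery none was called and none had an unadjusted p under 0.05, and the median log2 fold change was 0.03 (−0.05 without 3MO MPP 1). Notch1 was at 601, 693 and 504 CPM against 675, 693 and 502 CPM, with a log2 fold change of 0.06 (SE 0.17). Notch2 was at 611, 692 and 525 CPM against 613, 741 and 499.7 CPM. Of 11 tested Notch targets 7 were lower, with and without 3MO MPP 1, with a median of −0.03 in both. Hes1, a direct target, did not exceed 1.49 CPM, and Dtx1, Hey1 and Heyl had no count in any library. These values do not show that the pathway was unchanged, since on simulated data of this comparison edgeR missed most of the smaller changes that were put in.

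DESeq2 called 32 genes, or 0.239%, of which 23 were higher and 9 lower, and in 29 of them the ages did not overlap, as in 8.57% of all tested genes. The same values entered the calls and the overlap, and on simulated data of this comparison DESeq2 called more unchanged genes than edgeR did and also recovered more of the changed ones, so the genes below that edgeR did not call are given as values. All but 1 had an edgeR p under 0.01. Thbs1, the matrix protein thrombospondin, was at 2.17, 5.71 and 2.35 CPM at 1MO and 33.9, 52.4 and 131 CPM at 3MO (log2 fold change 4.44, SE 0.87, edgeR adjusted p = 0.307, DESeq2 0.00409). Fn1, fibronectin, was at 36.6, 71.2 and 23.8 CPM against 153, 124 and 90.8 CPM. Ide, an insulin-degrading protease, was at 232, 187 and 131 CPM against 321, 345 and 379.6 CPM. For all 3 genes every 3MO library was above every 1MO library, with the highest value in 3MO MPP 3 for Thbs1 and Ide and in 3MO MPP 1 for Fn1.

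Further genes higher at 3MO in DESeq2 were Ak4, a mitochondrial adenylate kinase (13.5, 13.5 and 12.2 against 35.3, 26.9 and 34.7 CPM), and Ndrg1, a hypoxia-induced gene (32.5, 54.3 and 27.7 against 143, 81.7 and 83.8 CPM). Hk3, the hexokinase of myeloid cells, was at 43.2, 46.1 and 31.6 CPM against 94.1, 88.9 and 96.7 CPM. Donson, a protein of DNA replication, was at 10.3, 17.8 and 15.8 CPM against 41.4, 32.7 and 35.6 CPM. Mst1r, a receptor tyrosine kinase of macrophages, had no count at 1MO and 2.22, 0.288 and 2.62 CPM at 3MO, at least 21-fold higher against the floor of 3 counts. The gene 1700047I17Rik2 was at 0 in all 1MO libraries and at 21.4, 18.6 and 0 CPM at 3MO. An all-or-none pattern of this kind within a group is uncertain for a gene that can share reads with a copy.

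Genes lower at 3MO in DESeq2 included Ms4a6b, a membrane protein (37.8, 41.7 and 48.1 against 14.9, 18.0 and 20.1 CPM), and Socs2, which limits cytokine signaling (15.3, 11.7 and 17.2 against 6.24, 7.55 and 2.91 CPM). Cnn3, an actin-binding protein, was at 60.8, 65.0 and 78.6 CPM against 23.4, 48.8 and 25.9 CPM. Plxdc2 was at 32.5, 18.1 and 23.9 CPM against 8.25, 7.12 and 5.03 CPM. Pdgfc, a growth factor, had no count at 3MO and up to 1.65 CPM at 1MO, at least 14.1-fold lower. Kitl, the stem cell factor made by stroma, was at 14.5, 1.76 and 1.21 CPM at 1MO and had 1 count at 3MO against 216, a ratio of 212 with an exact 95% counting interval of 37.7 to 8420. Most of the 1MO counts were in 1MO MPP 1, and the fitted log2 fold change of −7.37 became −5.42 without it. Col1a1, the collagen of stroma and bone, was not called by DESeq2 and was at 30.1, 49.6 and 2.11 CPM against 0, 5.47 and 0.354 CPM. Of the 15 stroma markers 7 were tested, 5 of them lower and none called by edgeR, with a median of −1.55 (9 of 11 and −3.21 without 3MO MPP 1). These medians cover different genes, since more markers passed the filter without this library. The log2 fold changes with and without it were −3.72 and −3.21 for Col1a1, −1.55 and −1.64 for Col1a2, and −7.37 and −7.02 for Kitl. All 15 markers summed to 16.6 to 83.4 CPM at 1MO and 5.88 to 17.1 CPM at 3MO, with Acan and Lum at 0 in every library. The part of stromal RNA in these differences was not tested.

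**Figure D5:**
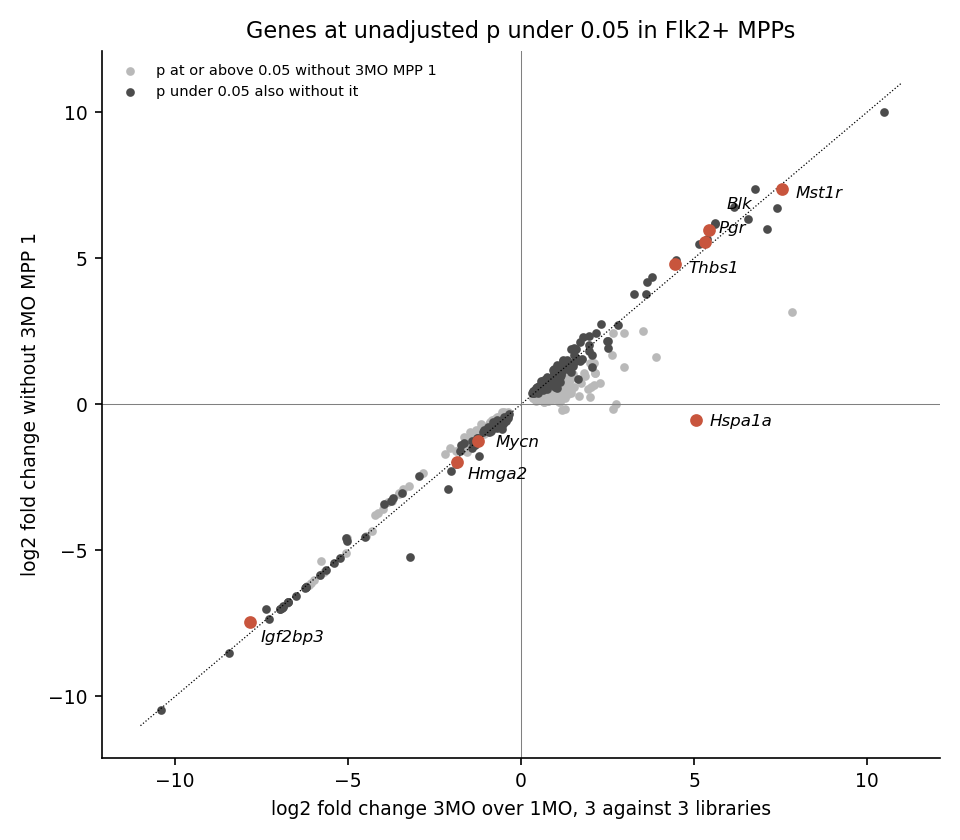
Log2 fold change of 3MO over 1MO from all 6 Flk2+ MPP libraries (horizontal) and without 3MO MPP 1 (vertical) for the 465 genes at unadjusted p under 0.05, dark where p stayed under 0.05, with 8 named genes in red. The dotted line marks equal values, and fitted values of genes at 0 in an age group depend on the prior count. Of the 465 genes 461 keep their sign and 208 stay under 0.05, and Hspa1a falls from 5.04 to −0.55. The genes were picked by p in the first fit and both fits share all other libraries, so the kept signs are a description.

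The same age contrast in Ly6d- CLPs, on other libraries, called 10 genes, or 0.0748%, and the 3 genes called in Flk2+ MPPs were among them. Igf2bp3 was at 38.9 to 67.7 CPM in 1MO Ly6d- CLPs and at 1.21 to 4.20 CPM at 3MO, a log2 fold change of −4.52. Hmga2 changed by −1.66 and Pgr by 4.52. Of the 465 genes at unadjusted p under 0.05 in Flk2+ MPPs, 319 (68.6%) had the same sign in Ly6d- CLPs, where 56.4% of all tested genes did. The methods describe sorting both cell types per mouse, so libraries of the 2 cell types may share mice, and these shares are given as a description. Tifab, an inhibitor of TRAF6 signaling that was called in Ly6d- CLPs (−1.39), was at 39.5, 34.4 and 34.4 CPM against 23.1, 21.5 and 22.6 CPM in Flk2+ MPPs (−0.69, SE 0.22, edgeR adjusted p = 1).

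Whether age acted differently in the 2 cell types was asked with an interaction term. edgeR called none of 13367 genes, which is 0%, with 429 at an unadjusted p under 0.05. DESeq2 called 6, among them Mycn, Ebf1 and Socs2 (adjusted p = 2.42e-05, 0.00503 and 0.0323), and voom with sample weights called none. Mycn had the smallest p (1.77e-05, adjusted 0.237 in edgeR). It was at 23.4, 31.5 and 26.7 CPM in 1MO Ly6d- CLPs and 40.4, 40.9 and 38.5 CPM at 3MO, so that the differences had opposite signs and the 3MO values of the 2 cell types overlapped. Socs2 also differed in sign, with 20.6, 19.1 and 19.6 CPM against 28.6, 35.1 and 32.7 CPM in Ly6d- CLPs (edgeR interaction, adjusted p = 0.918). Ebf1, a B-lineage transcription factor, was at 0.402, 0.878 and 0.181 CPM against 2.85, 1.94 and 0.921 CPM in Flk2+ MPPs, and at 76.3, 53.0 and 61.9 CPM against 38.2, 20.8 and 26.3 CPM in Ly6d- CLPs (edgeR interaction, adjusted p = 0.825). For Igf2bp3 the interaction had an unadjusted p of 0.00254, for Hmga2 0.577 and for Pgr 0.317.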

How the data were processed

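Total RNA was extracted from sorted BM progenitors, and per the study's methods poly(A) RNA was isolated before a directional library preparation. Per the labels and the study's methods, the authors trimmed the reads, removed ribosomal RNA, aligned with STAR to mm10 and quantified with Salmon. The annotation release and the strand setting of the counting are not given in the sources used here. The deposited table holds expected counts (gene-level estimated counts, corrected for length but not for depth). These were rounded to whole numbers. Column names gave the sample of each column.

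All 12 libraries in 4 groups entered 1 fit in edgeR 4.0.16 (R 4.3.3) with filterByExpr, TMM scaling and the quasi-likelihood test, and p-values were adjusted by Benjamini and Hochberg over all tested genes, at a threshold of 0.05. The SE of a log2 fold change is its size divided by the square root of F. CPM values use TMM-scaled totals. DESeq2 1.42.0 and voom with sample quality weights in limma 3.58.1 were alternatives, beside other scalings and filters, thinning to the smallest total, a replicate block, and each library left out. The code was tested on simulated data. The methods describe sorting per mouse and, for the Ly6d- CLPs, independent experiments. Each library held RNA of both sexes, and which mice entered which library is not given in the sources used here, so p-values measure the spread between these libraries. Counting intervals and floors cover counting error only.

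The members and the gene lists were chosen with earlier results of these data known, and a list is described by counts and medians without a test of its own. Genes were named by rule: those called by edgeR with or without 3MO MPP 1, the 10 of smallest p without overlap in each direction, the 2 of smallest p in each list with at least 5 tested, sort markers, the 10 leading DESeq2 calls of each direction, genes called in Ly6d- CLPs, the 5 of each sign leading the interaction, and the 10 genes that set 3MO MPP 1 apart. Other genes named were chosen after their values were seen. Coordinates are from GENCODE M21 on GRCm38, matched by identifier. Some genes of the lists are not reported here by name.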

Additional observations from a re-analysis of the deposited data

How the results depend on the processing

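The count of 3 genes called for age in Flk2+ MPPs became 26 with no filter on low counts, 1 with at least 10 counts in every library (Igf2bp3 and Pgr are then not tested), 32 with DESeq2's Wald test and 6 with voom, and the cause was not tested for these last 2. It stayed 3 with DESeq2's size factors, thinned counts or hemoglobin genes removed, and was 4 in a fit of only the 6 libraries of Flk2+ MPPs. Leaving out each library gave 3 to 5, the 5 without 3MO MPP 2 (adding Cnn3 and Gbp4). The count of 0 for the interaction became 6 with no filter and 6 with DESeq2, and 0 to 1 when each library was left out (Col1a2, without 3MO CLP 3). Same-numbered libraries of the 2 ages correlated at 0.0943, −0.0134 and 0.213, which by itself does not show that the numbers pair them. The hemoglobin share of counts did follow the number. It was 0.0117%, 0.00773%, 0.0131% and 0.0105% in the libraries numbered 3 (1MO and 3MO CLP, 1MO and 3MO MPP). In all others it was 0.00092% to 0.00253%. Whether the numbers mark experiments was not tested, and the main fit holds no term for them. With a replicate block the count was 3 in 12 libraries and 4 in the 6 of Flk2+ MPPs, and the interaction stayed at 0. Of the genes named by rule, 16 values changed sign, none of a called gene. Genes named only for the interaction or for setting 3MO MPP 1 apart are not in this count. As log2 fold changes, with the range over each library left out, Furin ranged from −0.161 (without 3MO MPP 1) to 0.808, and −0.00418 with voom. Casp8ap2 ranged from −0.679 to 0.0533 (without 1MO MPP 1), Hspa1a from −0.552 (without 3MO MPP 1) to 5.66, Stab2 from −7.6 to 0.136 (without 1MO MPP 3), Kit from −0.0222 (without 1MO MPP 2) to 0.0999, Cd34 from −0.0615 (without 3MO MPP 3) to 0.177, Il7r from −0.296 (without 1MO MPP 3) to 0.73 and −0.0415 after thinning, Ptprc from −0.195 to 0.0293 (without 3MO MPP 3), and Mapkbp1 from −0.0297 (without 3MO MPP 1) to 0.153. Signs also changed among other genes named here. Without 3MO MPP 1 the log2 fold change went from 0.056 to −0.0057 for Notch1 and from 0.016 to −0.019 for Hlf. It went from 0.14 to −0.026 for Meis1 and from 3.54 to −0.91 for Hspa1b. Genes under about 1 CPM rest on few counts.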

Other observations

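Stem cell regulators, transcription factors and receptors that hold long-term stem cells, were lower at 3MO in 16 of 25 tested (19 of 25 without 3MO MPP 1), none called, with a median log2 fold change of −0.12 (−0.20 without). Gata2, a transcription factor of stem cells, was at 94.2, 97.8 and 106 CPM at 1MO and 51.1, 71.6 and 83.8 CPM at 3MO, with every 3MO library below every 1MO library. Hlf, at 519 to 657 CPM against 520 to 609 CPM, and Meis1 overlapped between ages. Genes of megakaryocyte and erythroid priming were lower in 14 of 21, with a median of −0.17 (18 of 23 and −0.18 without 3MO MPP 1), and 2 of the 21 did not overlap, a share of 9.52% against 8.57% of all tested genes.

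Meg3, a maternally expressed long RNA of an imprinted cluster on chromosome 12, was at 0.643, 0.878 and 1.81 CPM at 1MO and 10.6, 16.3 and 14.3 CPM at 3MO (log2 fold change 3.61, SE 1.16, edgeR adjusted p = 1), and voom called it. Of the 12 imprinted genes tested, Meg3 included, 5 were higher and 7 lower (median −0.06, or −0.245 without 3MO MPP 1), and the 2 at an unadjusted p under 0.05, Meg3 and Igf2r, were both higher without overlap. Bcl2, which protects cells from apoptosis, was at 213, 220 and 125 CPM against 255, 293 and 270 CPM, with an unadjusted p of 0.00929, and its relative Bcl2l1 was at 22.1, 12.4 and 19.8 CPM against 12.7, 13 and 10.3 CPM. Itga6, an integrin of progenitors, was at 122, 105 and 92.2 CPM against 148, 140 and 168 CPM, and Itgal, a chain of LFA-1, was at 248, 318 and 258 CPM against 177, 248 and 192 CPM. Znrf3, an inhibitor of Wnt receptors, was at 52.1, 52.8 and 35.6 CPM against 33.1, 32.7 and 23.7 CPM. None of these passed edgeR's adjusted threshold.

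Markers of mast cells, basophils and eosinophils were higher at 3MO in 9 of 11, with and without 3MO MPP 1, none called (median 0.39, or 0.68 without). Hdc, the enzyme that makes histamine, was at 6.03, 8.45 and 7.17 CPM at 1MO and 24.7, 13.2 and 13 CPM at 3MO, so every 3MO library was above every 1MO library. Genes of hypoxia and glycolysis were split, with 13 of 28 higher (20 of 28 without 3MO MPP 1), and 4 had an unadjusted p under 0.05, all higher. Cd48, a surface protein used to tell stem cells from MPPs, was at 62.4, 52.5 and 61.9 CPM against 30.2, 40.5 and 37.9 CPM (log2 fold change −0.70), again without overlap.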
